A study of Mus musculus with 10 samples.

Results

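The genes described here are the mitochondrial carriers of the Slc25 family and the uncoupling proteins, measured in the gastrocnemius, a muscle of the calf, of C57BL/6 males. Members were all genes whose single symbol in the platform's probe annotation began with Slc25a, together with Ucp1 and Ucp3. Ucp2 was not analysed here. The rule gave 48 members among 19938 genes, and each was read from its probe set with the highest mean signal. A filter at the 40th percentile of the gene means, 3.23 on the log2 scale, kept 37 members and 11963 genes in all. The other 11 members lay below it and entered no test.

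Each of the 10 arrays was hybridised with RNA pooled from 5 animals. F0 EX mice had voluntary exercise, F0 SED mice lived sedentary, and both were 28 weeks old, with 1 pool each. F1 mice came from parents of like exposure, and F2 mice came from F1 mice bred with littermates. All F1 and F2 mice were sedentary and 8 weeks old, so EX and SED name only their ancestry. Both ancestries had 2 pools in F1 and 2 pools in F2. The F0 arrays are therefore the only ones in which exercise itself was a treatment, and in F0 against descendants, age and generation cannot be told apart. The pools of a group are not stated to hold different animals, so the p-values reflect only how far these pools differed, and that spread may be technical.

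Carriers of this family span the inner mitochondrial membrane and exchange metabolites, nucleotides, cofactors and ions between cytosol and matrix. In muscle they feed fuel and phosphate to oxidative phosphorylation and return ATP to the contractile apparatus, with the ADP/ATP and phosphate carriers at the exit and entry points and the carnitine-acylcarnitine carrier admitting long-chain fatty acids. Uncoupling proteins belong to the same family. Ucp1 dissipates the proton gradient as heat in brown fat, while Ucp3 is the form of skeletal muscle and is known to respond to fatty acids and fasting.

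The labelled tissue was borne out by its markers. The 12 skeletal muscle markers were all kept, and their mean lay between 12.2 and 12.5 log2 units on every array. F0 SED and F1 EX pool 1 stood apart from the rest, with a median Pearson r across genes of 0.974 and 0.979 with the other arrays, against 0.986 to 0.993 elsewhere. Their lower quartile of signal was 2.48, against 2.28 to 2.32 on the others. Values without these arrays are given beside the results that they move most. In bulk tissue, fewer cells of a type and less RNA per cell cannot be told apart.

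The stretches upstream of 4 members are shown because these members had F0 pools clearly outside the range of the descendant pools or, for Slc25a25, both F0 pools below it. Slc25a20, Slc25a28 and Slc25a30 had their highest signal on the F0 EX array, and Slc25a25 was, as deposited, lower on both F0 arrays than on any descendant array. Each is the 250 bases before a RefSeq transcription start in GRCm38.p6, read 5′ to 3′ on the gene's strand. Capitals mark matches to CCAAT or its reverse complement, or to TGACGTCA, the palindromic cyclic AMP response element.
Slc25a20, chr9:108661886-108662135, plus strand: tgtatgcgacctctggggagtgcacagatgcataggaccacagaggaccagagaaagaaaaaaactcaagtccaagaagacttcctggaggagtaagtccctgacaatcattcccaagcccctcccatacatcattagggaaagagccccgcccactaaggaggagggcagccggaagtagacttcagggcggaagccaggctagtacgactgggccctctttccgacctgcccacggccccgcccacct
Slc25a28, chr19:43674882-43675131, minus strand: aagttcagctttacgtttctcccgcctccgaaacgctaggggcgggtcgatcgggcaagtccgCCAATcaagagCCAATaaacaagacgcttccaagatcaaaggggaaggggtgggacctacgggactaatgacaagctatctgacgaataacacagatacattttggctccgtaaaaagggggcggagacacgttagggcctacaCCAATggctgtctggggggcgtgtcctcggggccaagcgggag
Slc25a30, chr14:75787038-75787287, minus strand: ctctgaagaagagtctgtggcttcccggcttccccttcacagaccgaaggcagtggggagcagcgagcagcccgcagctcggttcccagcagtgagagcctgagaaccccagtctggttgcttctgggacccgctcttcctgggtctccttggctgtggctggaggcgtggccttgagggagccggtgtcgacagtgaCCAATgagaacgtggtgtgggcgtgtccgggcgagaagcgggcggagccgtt
Slc25a25, chr2:32424067-32424316, minus strand: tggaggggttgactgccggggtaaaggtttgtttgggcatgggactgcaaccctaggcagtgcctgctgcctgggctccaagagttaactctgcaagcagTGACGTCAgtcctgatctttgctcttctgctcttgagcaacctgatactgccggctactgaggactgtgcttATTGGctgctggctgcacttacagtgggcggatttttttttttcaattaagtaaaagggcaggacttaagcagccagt
Slc25a25 has 3 listed starts, and the one shown is the one whose window held the cyclic AMP response element, 150 bases before the start. Slc25a28 held 3 CCAAT matches, at 187, 176 and 43 bases before its start, and Slc25a30 held 1 at 52 bases. The Slc25a20 window held no match to any motif searched. Both strands were searched for CCAAT, TGACGTCA, the nuclear receptor core motif AGGTCA and the estrogen-related receptor element TNAAGGTCA, which contains AGGTCA. Of 32851 promoter windows of the same length, 33.8% held CCAAT, 1.55% TGACGTCA, 14.0% AGGTCA and 1.14% TNAAGGTCA. Windows were found for 38 of the 48 members. Of their 48 windows, 21 held CCAAT, 6 held AGGTCA, 2 held TGACGTCA and 0 held TNAAGGTCA. A match is a description of the letters, not of a bound site.

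**Figure D1:**
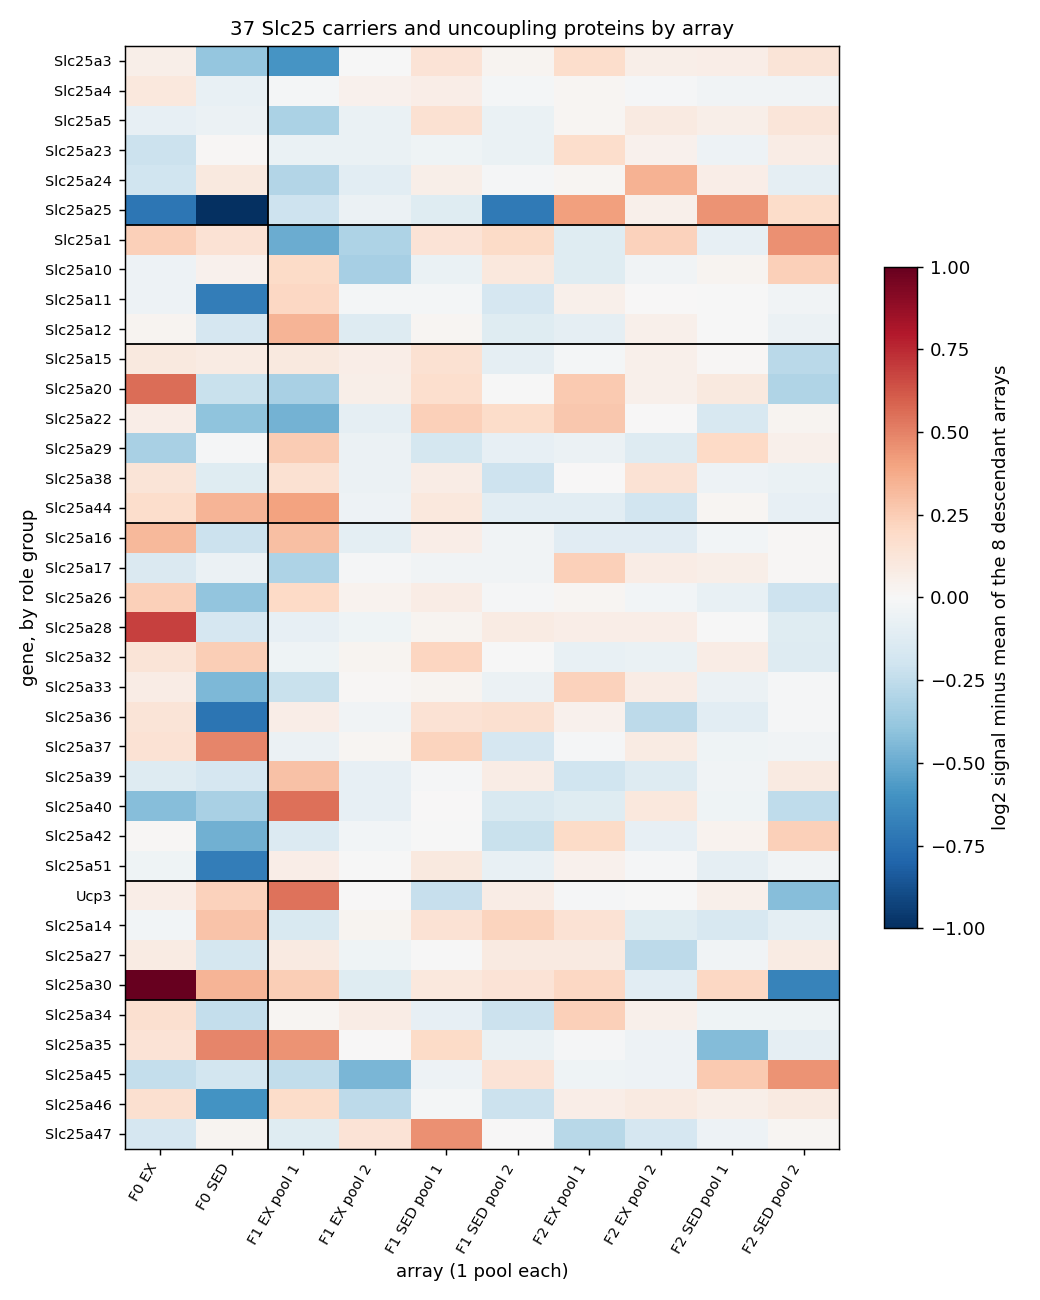
Log2 signal of the 37 kept members on each of the 10 arrays, as the difference from the mean of the 8 descendant arrays, with genes ordered by role group (horizontal lines) and differences beyond 1 drawn at the end of the colour scale. The F0 SED column is the lowest of the 10 for 13 members, and the F1 EX pool 1 column is the highest or lowest of the 8 descendant arrays for 21 members.

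The first comparison set the exercised F0 pool against the sedentary F0 pool. On the F0 EX array, 10 of 37 members were higher by at least 0.5 on the log2 scale, and 0 were lower by as much. Over all kept genes the shares were 15.3% and 5.38%. The members' median difference was 0.19, against 0.08 for all kept genes, and 22 members lay above 0 and 15 below, where 58% of all genes lay above. There was 1 pool per group, so these are differences between arrays with no replicate check and no test.

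As deposited, the higher members came mostly from the carriers of cofactors, nucleotides and metals. There 6 of 12 were higher by at least 0.5 and the median was 0.51. Of all kept genes 15.3% were, and of those with a mean of at least 6, 1181 of 4901. After quantile normalization only Slc25a28, Slc25a33 and Slc25a36 of this group were. With arrays centred on the median of the kept genes, Slc25a26, Slc25a28, Slc25a36 and Slc25a51 were. With centring over all probe sets, Slc25a42 joined the 6. Slc25a36, a pyrimidine nucleotide carrier, read 6.64 in F0 EX and 5.79 in F0 SED, a difference of 0.86. Its descendants lay between 6.25 and 6.67, so the F0 EX pool was within their range and the F0 SED pool below it. A second probe set of Slc25a36 read 6.31 in F0 EX, 5.04 in F0 SED and 5.60 to 6.06 in descendants, and there F0 EX was above the descendant range as well.

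Slc25a28, mitoferrin 2, which brings iron into mitochondria, had its F0 EX pool far above a narrow range of descendant pools. It read 7.43 in F0 EX and 6.58 in F0 SED, a 1.80-fold difference. In F1 the EX pools read 6.67 and 6.71 and the SED pools 6.77 and 6.83. In F2 the EX pools read 6.82 and 6.82 and the SED pools 6.74 and 6.63. The 8 descendant pools thus spanned 0.20 log2 units, with a mean of 6.75 ± 0.07 (SD, n = 8), and F0 EX lay 0.68 above that mean. Slc25a37, mitoferrin 1, the iron importer best known from erythroid cells, ran the other way, with 5.19 in F0 EX, 5.53 in F0 SED and 4.88 to 5.26 in descendants. Erythrocyte markers (3 of 7 measured, Epb42 below the filter) averaged 3.38 in F0 EX, 3.47 in F0 SED and 3.11 to 4.01 in descendants, and their part in the Slc25a37 values was not tested.

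Some other carriers of this group stood at descendant levels in F0 EX and low in F0 SED. Slc25a51, which brings NAD into mitochondria, read 7.09 in F0 EX, 6.44 in F0 SED and 7.04 to 7.23 in descendants. Slc25a33, a pyrimidine nucleotide carrier responsive to insulin-like growth factor, read 4.88, 4.36 and 4.59 to 5.04 in the same order. Slc25a42, a coenzyme A carrier, read 5.90, 5.41 and 5.66 to 6.12. For these 3 members F0 EX lay inside the descendant range and F0 SED below it. Slc25a26, the S-adenosylmethionine carrier, read 7.24 in F0 EX, 6.60 in F0 SED and 6.79 to 7.19 in descendants. Slc25a16 read 7.23, 6.69 and 6.79 to 7.21. For both, the F0 pools lay outside the range, one on each side. The group was not uniform, and 4 of its 12 members were lower in F0 EX than in F0 SED. Slc25a32 read 6.36 in F0 EX, 6.48 in F0 SED and 6.11 to 6.45 in descendants. For Slc25a17 and Slc25a39 both F0 pools lay inside the descendant range.

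Among the carnitine and amino acid carriers, Slc25a20 differed most. It encodes the carnitine-acylcarnitine carrier that admits long-chain fatty acids for oxidation. It read 9.14 in F0 EX and 8.35 in F0 SED, a 1.73-fold difference. The F1 EX pools read 8.25 and 8.63, the F1 SED pools 8.57 and 8.74, the F2 EX pools 8.63 and 8.83, and the F2 SED pools 8.27 and 8.68. F0 EX was above all 8 descendant pools, and F0 SED lay among them. Slc25a29, a basic amino acid carrier, went the other way, with 4.06 on the F0 EX array and 4.38 on the F0 SED array, and its descendants lay between 4.21 and 4.64.

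Slc25a30, a close relative of the uncoupling proteins also known as kidney mitochondrial carrier protein 1, read 6.10 in F0 EX and 5.30 in F0 SED. The F1 EX pools read 4.84 and 5.20, the F1 SED pools 5.07 and 5.10, and the F2 EX pools 4.85 and 5.16. The F2 SED pools read 5.16 and 4.29. It was the one member above all descendants on both F0 arrays, a position held by 5.79% of kept genes. The other relatives differed less, with Slc25a14 reading 3.38 (EX) and 3.69 (SED) and Slc25a27 reading 4.94 and 4.69.

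Ucp3 did not share this direction. It read 8.31 in F0 EX and 8.48 in F0 SED, both within the descendant range of 7.82 to 8.80. Ucp1 was below the filter, between 2.25 and 2.79 on all arrays, with 2.25 in F0 EX and 2.74 in F0 SED. Brown adipocyte markers were likewise low on every array, with a mean of 3.68 to 3.83 over 7 measured of 8, of which Elovl3, Dio2 and Zic1 lay below the filter.

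Of the 6 kept carriers that serve ATP export, phosphate entry and the matrix nucleotide pool, 0 differed by 0.5 or more between the F0 pools, and their median difference was 0.08. Slc25a4, the muscle ADP/ATP carrier, read 12.47 in F0 EX and 12.29 in F0 SED, and its 8 descendant pools lay between 12.33 and 12.43. The F0 EX pool was the highest and the F0 SED pool the lowest of the 10 arrays, over a span of only 0.19. Slc25a3, the phosphate carrier, read 9.52 and 9.07, with descendants from 8.87 to 9.63. Slc25a5, the ADP/ATP carrier of dividing and other cells, read 7.22 and 7.24, with descendants from 6.98 to 7.46. Its other probe sets read 7.22 and 6.87, and 6.49 and 6.10, in F0 EX and F0 SED, so the probe sets disagreed on this difference. Slc25a24, a calcium-regulated ATP-Mg/phosphate carrier, read 4.21 in F0 EX and 4.51 in F0 SED.

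Of the shuttle carriers, Slc25a11, the oxoglutarate-malate exchanger of the malate-aspartate shuttle, read 9.63 in F0 EX and 8.99 in F0 SED, with descendants from 9.51 to 9.89. Its partner Slc25a12, the muscle aspartate-glutamate carrier, read 11.28 and 11.08, with descendants from 11.12 to 11.59. Slc25a13, the aspartate-glutamate carrier typical of liver, was below the filter, between 2.61 and 3.14. Slc25a46, an outer membrane relative that acts in mitochondrial shape, read 7.33 in F0 EX, 6.57 in F0 SED and 6.91 to 7.36 in descendants. Slc25a35, whose substrate is less well defined, was the member lowest in F0 EX relative to F0 SED, at 4.88 and 5.23.

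**Figure D2:**
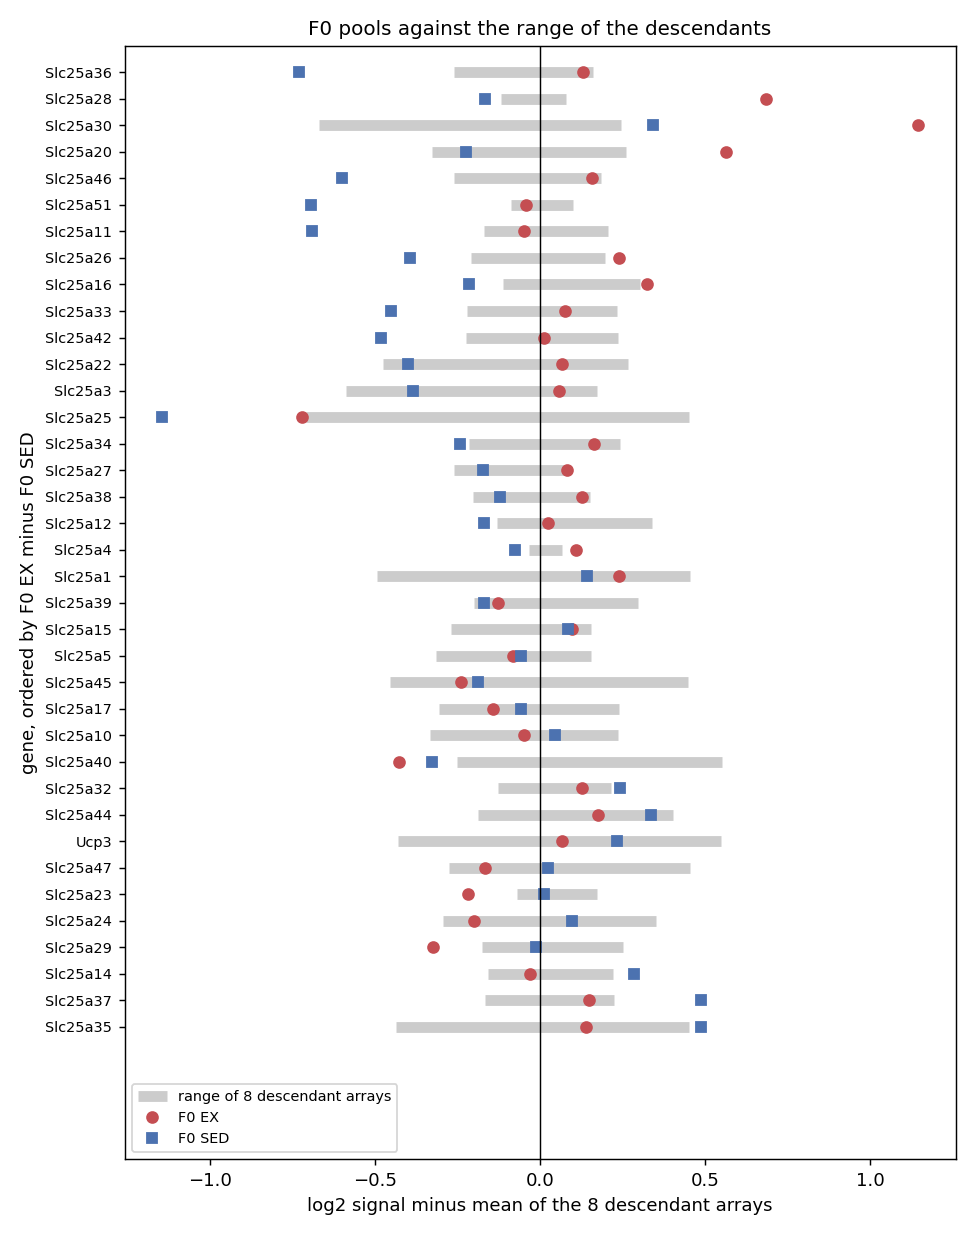
Signals of the F0 EX pool (circles) and the F0 SED pool (squares) for the 37 kept members, as log2 differences from the mean of the 8 descendant pools, whose range is drawn as grey bars; genes are ordered by F0 EX minus F0 SED. F0 SED lies below the descendant bar for 14 members, and F0 EX lies above it for 6.

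The F0 difference depended on the level of the gene and on the scaling of the arrays. Among the 18 members with a mean of at least 6, a split chosen after seeing the data, 8 were higher by 0.5 and the median was 0.43. Among the 19 kept members below it 2 were higher and the median was -0.08. Of all kept genes, 1181 of 4901 with a mean of at least 6 were higher by 0.5, with a median of 0.20, and 654 of 7062 below it, with a median of -0.01. Centring every array on its median over all probe sets gave a count of 15 higher members, and all kept genes split into 2932 higher and 305 lower, against 1835 and 644 as deposited. With quantile normalization 7 members were higher, with 1280 genes higher and 927 lower, and with arrays centred on the median of the kept genes 8 were higher, with 1197 and 1162. Slc25a20, Slc25a28, Slc25a30, Slc25a36 and Slc25a46 stayed higher by at least 0.5, and 0 members were lower by 0.5, in each of these settings. The median of all kept genes moved from 0.08 to 0.22 when arrays were centred over all probe sets. The members' median was then 0.33. After quantile normalization the members' median was 0.0057 and that of all kept genes 0.0081, so the members' higher median as deposited was not seen there.

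F0 EX was the highest of all 10 arrays for 6 members, Slc25a4, Slc25a16, Slc25a20, Slc25a26, Slc25a28 and Slc25a30, where 18.5% of kept genes did this. F0 SED was the lowest for 13 members, where 27.2% of kept genes did, and below all descendants for 14, where 29.5% did. Slc25a20, Slc25a28 and Slc25a30 kept the F0 EX peak under both centrings and quantile normalization. For Slc25a28 the F0 EX pool exceeded the highest descendant pool by 0.49 to 0.63 under these 3 settings, for Slc25a30 by 0.82 to 0.96, and for Slc25a20 by 0.28 to 0.33. Slc25a4, Slc25a16, Slc25a26 and Slc25a28 had F0 EX above and F0 SED below all descendants, as 6.30% of kept genes did. With arrays centred on their median over all probe sets 7 members did so (9.74% of kept genes), with arrays centred on the kept genes 1 (3.70%), and after quantile normalization 0 (3.92%).

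The second comparison set both F0 pools against the 8 descendant pools. No member passed the threshold of adjusted p 0.05 (limma with Benjamini-Hochberg adjustment over 11963 genes), while 340 genes, 2.84%, did, 125 of them higher and 215 lower in F0. At an unadjusted p under 0.05 there were 6 members of 37, against 18.1% of all kept genes. The members' median difference was -0.07, against -0.02 for all kept genes, with 14 members above 0 and 23 below. Without F0 SED the members' median was 0.05, and without F0 EX it was -0.13. The model held ancestry, so without F0 SED the F0 EX pool was set only against the 4 EX descendant pools. Without F0 EX, the F0 SED pool was set only against the 4 SED descendant pools. Markers of other cell types also differed in this comparison. Fibroblast and tendon markers (8 of 8 kept) averaged 8.38 (EX) and 8.29 (SED) in F0, against 9.20 to 9.58 in descendants. Endothelial markers (7 of 7 kept) averaged 6.73 and 6.44, against 6.90 to 7.02, and nerve and Schwann cell markers (4 of 6 measured) 5.68 and 5.83, against 5.91 to 6.18. Their part in the members' values was not tested.

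Slc25a25 lay nearest to the threshold. It encodes a calcium-regulated ATP-Mg/phosphate carrier, which adjusts the adenine nucleotide pool of the matrix. It read 5.68 in F0 EX and 5.26 in F0 SED. The F1 EX pools read 6.20 and 6.35, the F1 SED pools 6.28 and 5.70, the F2 EX pools 6.81 and 6.46, and the F2 SED pools 6.86 and 6.59. Both F0 pools were below all descendants, by a narrow margin against F1 SED pool 2, a position shared by Slc25a40 and by 6.65% of kept genes. With arrays centred on their median over all probe sets, F0 EX (5.76) lay above F1 SED pool 2 (5.67), and the position was lost. The F0 minus descendant difference was -0.93 (SE 0.24, 95% confidence interval -1.45 to -0.42, adjusted p = 0.0572, limma). Against F2 alone it was -1.21 with an adjusted p of 0.00963, and against F1 alone -0.66 with 0.352. It passed in 4 of 21 alternatives, over which adjusted p ranged from 0.00963 to 0.581. Without F0 SED it was -0.77 (adjusted p = 0.382), without F1 EX pool 1 -0.98 (0.0301), and without F1 SED pool 2 -1.03 (0.0157).

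Slc25a30 was higher in F0 by 0.74 (SE 0.22, 95% confidence interval 0.27 to 1.21, adjusted p = 0.0962), and it passed in 0 of 21 alternatives. Without F0 SED its difference was 1.09, and without F0 EX it was 0.40. Slc25a11 was at -0.37 (adjusted p = 0.139), Slc25a51 at -0.37 (0.145), Slc25a37 at 0.32 (0.185) and Slc25a40, linked to glutathione import, at -0.38 (0.233). Without F0 SED, Slc25a37 was at 0.14 and Slc25a40 at -0.54, and without F0 EX they were at 0.49 and -0.21. The Slc25a40 pools read 4.30 and 4.40 in F0 and 4.48 to 5.28 in descendants. A second, dimmer probe set of Slc25a40 went the other way, at 3.03 and 3.30 in F0 with a descendant mean of 2.87, so the probe sets of this gene disagreed.

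The F0 pools were unlike each other for several members, and the result then depended on which one entered. In these fits the lone F0 pool is assumed to vary like the other groups. Each lone pool is set only against the descendants of its own ancestry. With F0 EX alone against the EX descendants, Slc25a28 was higher by 0.68. With F1 EX pool 1 left out as well, it was higher by 0.65 (adjusted p = 0.0297) and 204 genes were called. With F0 SED alone it was at -0.16. With F0 SED alone, Slc25a51 was at -0.67 (adjusted p = 0.0105), Slc25a36 at -0.78 (0.0153) and Slc25a11 at -0.63 (0.0171), among 1297 genes called. With F0 EX alone Slc25a51 was at -0.07, Slc25a36 at 0.18 and Slc25a11 at -0.11. Over all 21 alternatives adjusted p ranged from 0.0297 to 0.819 for Slc25a28, 0.0105 to 0.887 for Slc25a51, 0.0153 to 0.832 for Slc25a36 and 0.0171 to 0.851 for Slc25a11.

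Among the other members fixed for description, intervals included 0. Slc25a4 differed by 0.02 (95% confidence interval -0.19 to 0.22), Slc25a5 by -0.07 (-0.32 to 0.18) and Slc25a3 by -0.16 (-0.55 to 0.23). Slc25a12 differed by -0.07 (-0.34 to 0.19), and Slc25a20, with its F0 pools apart, by 0.17 (-0.23 to 0.57). Slc25a33 differed by -0.19 (-0.47 to 0.10), Slc25a42 by -0.23 (-0.55 to 0.08) and Ucp3 by 0.15 (-0.23 to 0.53). A change as large as 0.5 lay outside the interval for 19 of the 37 members, and for 7533 of 11963 kept genes.

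**Figure D3:**
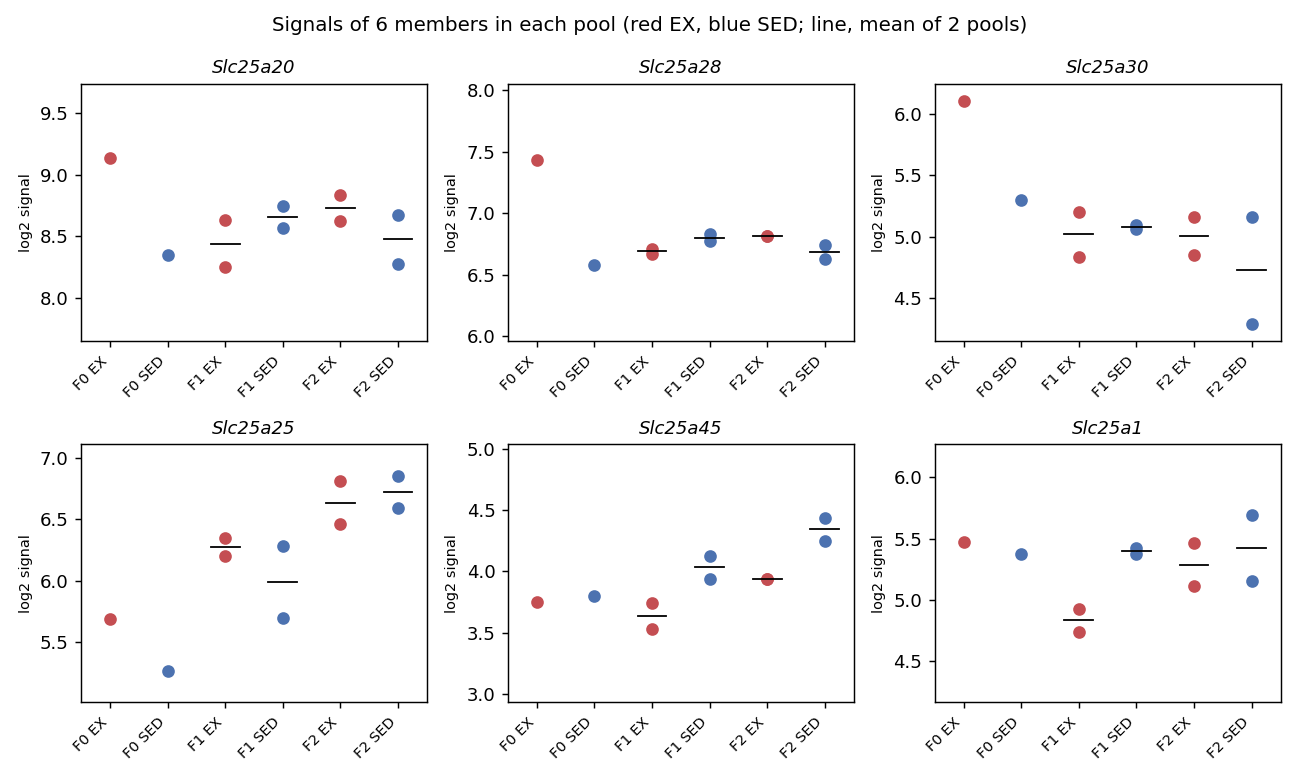
Log2 signal of 6 members in each pool, by group, with EX pools in red and SED pools in blue, a line at the mean of the 2 pools of a descendant group, and axes of equal span. Slc25a20, Slc25a28 and Slc25a30 peak in F0 EX, Slc25a25 is lowest in the F0 pools, Slc25a45 is low in the EX descendants, and Slc25a1 is lowest in the F1 EX pools.

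The third comparison asked whether descendants of exercised and of sedentary animals differed. Over F1 and F2 together, 0 of 37 members and 0 of 11963 genes passed the threshold (limma, adjusted over all genes). At an unadjusted p under 0.05 there were 3 members, against 4.99% of all kept genes. The members' median difference, EX minus SED, was 0.01, as for all kept genes, with 21 members above 0 and 16 below. It was -0.01 with arrays centred on the median of the kept genes.

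Slc25a45 differed most. It was a dim member, with a mean of 3.95 over the 10 arrays, not far above the filter level of 3.23. The means of the 37 kept members ran from 3.43 to 12.4. The Slc25a45 EX pools read 3.74 and 3.53 in F1 and 3.94 and 3.94 in F2. Its SED pools read 3.94 and 4.13 in F1 and 4.25 and 4.44 in F2. Within each generation both EX pools were below both SED pools, and over both generations the groups met at 3.94. The means were 3.79 ± 0.19 and 4.19 ± 0.21 (SD, n = 4 each), a difference of -0.40 (SE 0.09, 95% confidence interval -0.60 to -0.20, adjusted p = 0.888, limma). The difference was -0.40 in F1 and -0.40 in F2, and in 17 alternatives it lay between -0.44 and -0.33, with adjusted p from 0.418 to 0.999. In the F0 pools themselves Slc25a45 read 3.75 in EX and 3.80 in SED.

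Slc25a1, the citrate carrier that supplies cytosolic acetyl groups for lipid synthesis, was the next. Its F1 EX pools read 4.74 and 4.93 and its F1 SED pools 5.37 and 5.43, without overlap. Its F2 EX pools read 5.11 and 5.46 and its F2 SED pools 5.16 and 5.69, with overlap. The difference over both generations was -0.35 (SE 0.14, adjusted p = 0.888). It was -0.56 in F1 alone (95% confidence interval -0.99 to -0.14, adjusted p = 0.804). Without F1 EX pool 1 these were -0.27 and -0.47. White adipocyte markers (9 of 10 measured, Lep below the filter) averaged 5.55 and 5.61 in the F1 EX pools and 5.99 and 6.18 in the F1 SED pools, and 5.83 and 5.91 against 5.70 and 6.23 in F2. Their part in the Slc25a1 values was not tested.

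As deposited, Slc25a34 was the one member whose 4 EX pools all lay above the 4 SED pools, which 1.75% of kept genes did. It was dim as well, with a mean of 3.82 over the 10 arrays against the filter level of 3.23. Its EX pools read 3.85 and 3.91 in F1 and 4.07 and 3.88 in F2, and its SED pools 3.62 and 3.75 in F1 and 3.79 and 3.79 in F2. The difference was 0.19 (SE 0.08, 95% confidence interval 0.01 to 0.38, adjusted p = 0.888). With arrays centred on their median over all probe sets, its F1 EX pool 1 (3.775) lay below its F2 SED pool 1 (3.780), and the position was lost. As deposited, 0 members had all EX pools below all SED pools, as 1.28% of kept genes did.

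Ucp3 differed by 0.27 (95% confidence interval -0.05 to 0.59, adjusted p = 0.888). Its EX pools read 8.80 and 8.25 in F1 and 8.24 and 8.25 in F2, and its SED pools 8.02 and 8.32 in F1 and 7.82 and 8.30 in F2. F1 EX pool 1 was the highest, and without it the difference was 0.14. Slc25a47, a carrier best known from liver, was at -0.21 (adjusted p = 0.888), and at -0.12 without F1 SED pool 1. Among the smallest differences were those of Slc25a4, at 0.01 (-0.16 to 0.18), Slc25a28, at 0.01 (-0.18 to 0.20), Slc25a20, at 0.02 (-0.29 to 0.33), and Slc25a37, at 0.01 (-0.21 to 0.23). For 32 of the 37 members the 95% confidence interval excluded a difference of 0.5 in either direction, as it did for 10662 of 11963 kept genes.

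**Figure D4:**
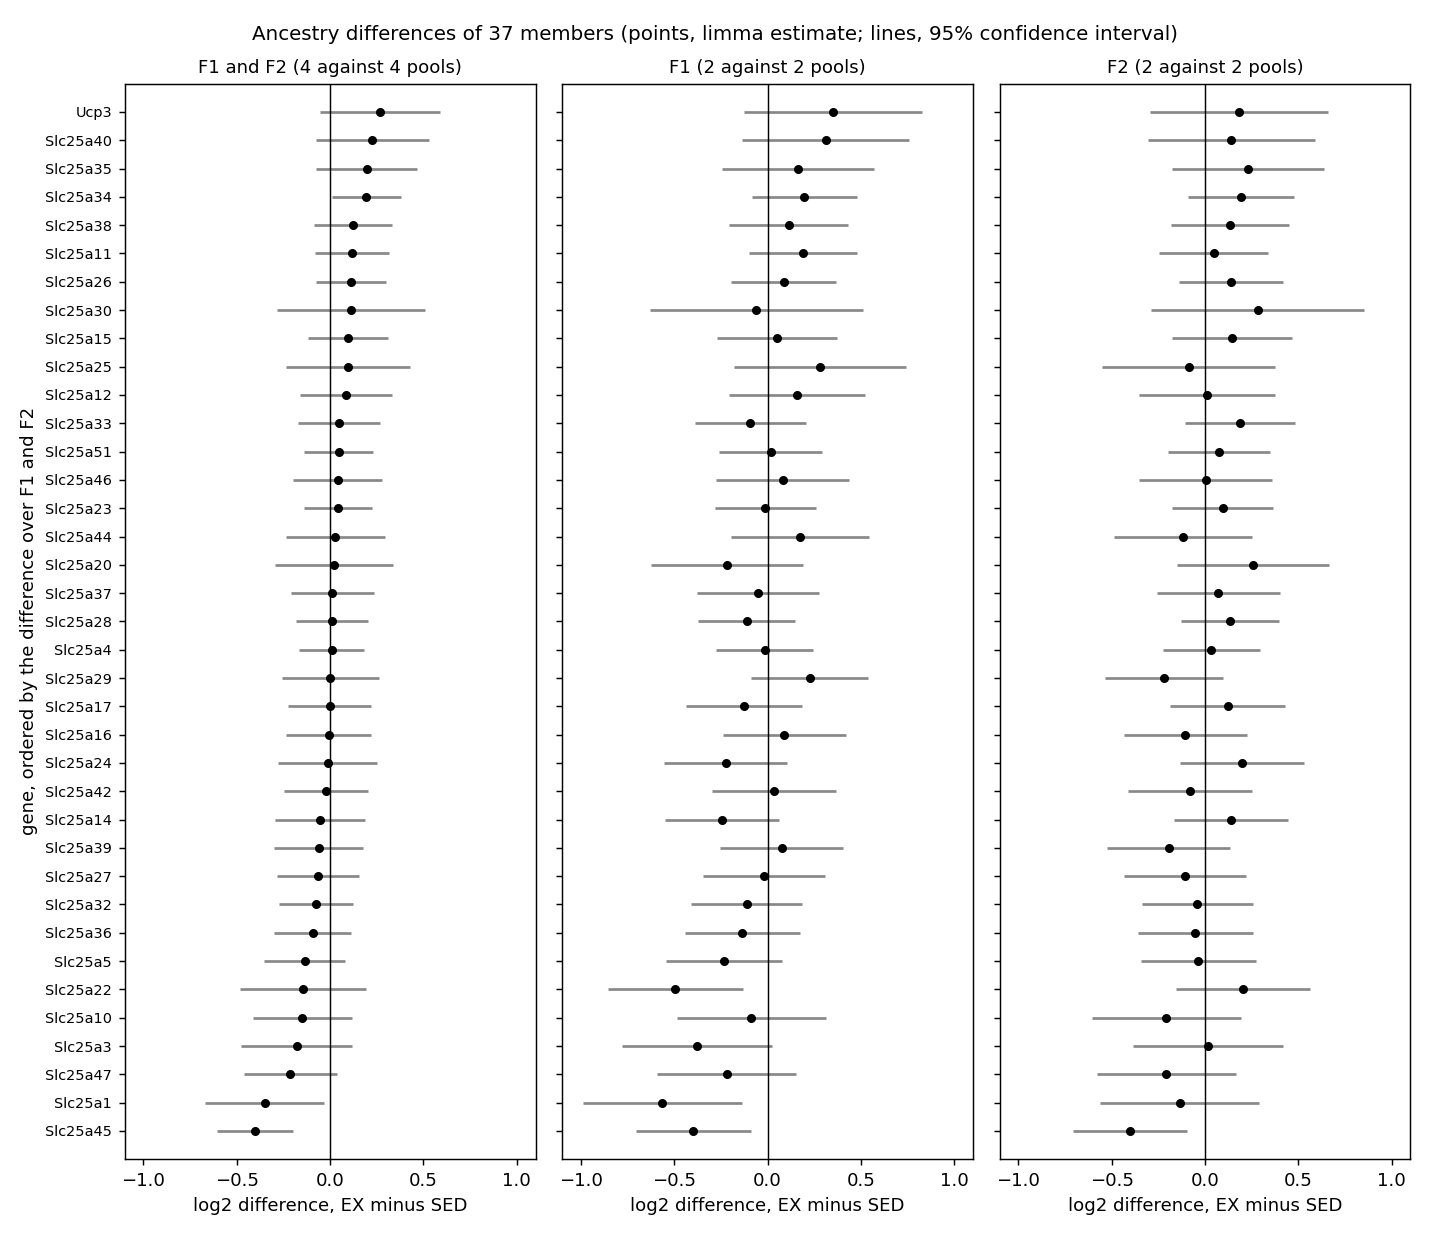
EX minus SED log2 difference of the 37 kept members in F1 and F2 together (4 pools against 4), in F1 and in F2 (2 pools against 2 each), as limma estimates with 95% confidence intervals; genes are ordered by the first panel. Slc25a45 lies near -0.40 in every panel, and 0 members pass an adjusted p of 0.05 in any panel.

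Within F1, 0 members and 0 genes passed, and 3 members had an unadjusted p under 0.05, against 4.88% of all kept genes. Both EX pools lay below both SED pools for 8 members, where 16.6% of all genes did so, and above them for 3, where 13.0% did. Slc25a22, a mitochondrial glutamate carrier, read 4.58 and 4.97 in EX and 5.24 and 5.29 in SED, a difference of -0.49 (SE 0.16, adjusted p = 0.804). Slc25a3 read 8.87 and 9.45 in EX and 9.48 and 9.59 in SED, a difference of -0.38 (adjusted p = 0.804).

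The F1 contrast depended on which EX pool entered. F1 EX pool 1 was the highest or the lowest of the 8 descendant arrays for 21 of 37 members, as it was for 54.7% of all kept genes. With pool 1 alone standing for F1 EX, assumed to vary like the other groups, 3 members and 1046 genes were called. They were Slc25a22 at -0.69 (adjusted p = 0.0345), Slc25a3 at -0.67 (0.0259) and Slc25a40 at 0.63 (0.0458). With pool 2 alone the same members were at -0.30, -0.084 and -0.0040, and 0 members were called. Each of the 3 was called in 1 alternative, and its adjusted p reached 1.00 in another. A second, dimmer probe set of Slc25a40 read 2.76 in F1 EX pool 1 and 2.84 and 2.79 in the F1 SED pools, so it was not higher there. Slc25a14 was at -0.24 over both pools (adjusted p = 0.804, limma), -0.15 without pool 1 and -0.34 without pool 2.

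Within F2, 0 members and 0 genes passed, and 1 member, Slc25a45, had an unadjusted p under 0.05, against 4.45% of all kept genes. Both EX pools were above both SED pools for 11 members, where 25.8% of all genes did so, and below them for 7, where 14.6% did. Next after Slc25a45 at -0.40 (adjusted p = 1.00) came Slc25a29 at -0.22, Slc25a34 at 0.19, Slc25a33 at 0.19 and Slc25a20 at 0.26, with adjusted p of 1.00 each. These values moved with single pools left out. Slc25a20 was at 0.055 without F2 SED pool 2 and 0.46 without F2 SED pool 1, and Slc25a29 was at -0.30 and -0.15. Slc25a34 was at 0.098 without F2 EX pool 1 and 0.29 without F2 EX pool 2, and Slc25a33 at 0.11 and 0.27. The members' median was 0.05, against 0.04 for all kept genes, and it was -0.00 with arrays centred on the median of the kept genes.

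Whether ancestry acted alike in both descendant generations was tested as an interaction, F2 effect minus F1 effect. 0 members and 0 genes passed, with 2 members at an unadjusted p under 0.05, against 4.34% of all kept genes. Slc25a22 had the largest difference, 0.70 (SE 0.23, 95% confidence interval 0.19 to 1.21, adjusted p = 0.919). It was at 0.50 without F1 EX pool 1 and 0.89 without F1 EX pool 2. Its F2 EX pools read 5.32 and 5.06 and its F2 SED pools 4.90 and 5.08, where both F1 EX pools had been below both F1 SED pools. Slc25a29 was at -0.45, Slc25a20 at 0.47, Slc25a24 at 0.43 and Slc25a14 at 0.38, each with an adjusted p of 0.919. Slc25a29 was at -0.29 without F1 EX pool 1 and -0.60 without F1 EX pool 2. Slc25a20 was at 0.27 without F2 SED pool 2 and 0.67 without F2 SED pool 1. Without F2 EX pool 1 Slc25a24 was at 0.59 and Slc25a14 at 0.25, and without F2 EX pool 2 they were at 0.26 and 0.51. Without F1 EX pool 2, 143 genes and 0 members were called. With 2 pools per group the intervals were wide. They excluded a difference of 0.5 for 8 of the 37 members and for 2083 of 11963 kept genes.

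The last comparison set F2 against F1, at the same age. 0 members and 0 genes passed, and 3 members had an unadjusted p under 0.05, against 4.25% of all kept genes. Slc25a25 was higher in F2 in every pool, with an F1 mean of 6.13 ± 0.30 and an F2 mean of 6.68 ± 0.19 (SD, n = 4 each). The difference was 0.55 (SE 0.15, 95% confidence interval 0.22 to 0.88, adjusted p = 0.911). As deposited, Slc25a17, the peroxisomal member of the family, was the other member with all F2 pools above all F1 pools. Its difference was 0.19 (adjusted p = 0.911, limma), and 1.77% of kept genes held this position. Its lowest F2 pool read 5.42 and its highest F1 pool 5.40. The position was lost after quantile normalization (5.404 and 5.419) and with arrays centred on the median of the kept genes (5.421 and 5.442). 0 members had all F2 pools below all F1 pools, as 1.11% of kept genes did. Slc25a45 was at 0.31, Slc25a35 at -0.29, Slc25a47 at -0.24 and Slc25a42 at 0.20, each with an adjusted p of 0.911. Without F1 SED pool 1 Slc25a47 was at -0.15.

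For Slc25a25 the F0 pools therefore lay lowest, F1 in between and F2 highest, with F0 values of 5.26 and 5.68, F1 values from 5.70 to 6.35 and F2 values from 6.46 to 6.86. As deposited the highest F0 pool and the lowest F1 pool were almost level, and with arrays centred on their median over all probe sets they overlapped, with F0 EX at 5.76 and F1 SED pool 2 at 5.67. F0 differs from the others in age as well as generation, and neither the step from F0 to F1 nor that from F1 to F2 passed the threshold after adjustment.

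The 11 members below the filter were Slc25a2, Slc25a13, Slc25a18, Slc25a21, Slc25a31, Slc25a41, Slc25a43, Slc25a48, Slc25a53, Slc25a54 and Ucp1. Their means lay between 2.09 and 3.10. Slc25a31 is the ADP/ATP carrier of germ cells, and Slc25a13, Slc25a18 and Slc25a48 are best known from liver, brain or kidney. Their median F0 EX minus F0 SED difference was -0.23, with 9 of 11 below 0, and all genes below the filter had a median of -0.15.

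The spread between pools of a group was typical of the arrays. The median within-group SD was 0.14 log2 units for the 37 kept members and 0.15 for all kept genes, and the median range over the 8 descendant pools was 0.46 for both. Slc25a4 was among the steadiest, with 12.36 ± 0.04 (SD, n = 8), and Slc25a28 and Slc25a51 had descendant SDs of 0.07. Slc25a25 varied over a range of 1.16, Ucp3 over 0.98, Slc25a1 over 0.95 and Slc25a30 over 0.91.

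The enzymes and channels that work with these carriers were read from 6 lists. In every tested comparison 0 of their measured members passed the threshold. Between the F0 pools, 13 kept genes of the carnitine shuttle and fatty acid oxidation had a median difference of 0.50 toward F0 EX, with 6 higher by at least 0.5 and 0 lower. Their means lay between 5.78 and 10.5, and 1181 of 4901 kept genes with a mean of at least 6 were higher by as much, with a median of 0.20. Cpt2, the inner membrane acyltransferase that works beside Slc25a20, read 7.59 in F0 EX, 6.80 in F0 SED and 7.33 to 7.69 in descendants. Etfdh, which passes electrons from fatty acid oxidation to ubiquinone, read 10.03, 8.92 and 9.49 to 9.78. F0 SED was thus below the descendants for both genes, and F0 EX was above them only for Etfdh.

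The list chosen to stand beside Ucp3, which holds fatty acid-responsive genes and regulators among others, had a median of 0.57 over 10 kept genes. Of these, 5 were higher by at least 0.5, where 15.3% of all kept genes and 1181 of 4901 with a mean of at least 6 were. Cd36, a fatty acid transporter, read 9.80 in F0 EX and 8.68 in F0 SED, and Acot2, a mitochondrial thioesterase, 8.04 and 7.11. Angptl4 was on the other side of 0, at 3.88 and 4.36, as Ucp3 was. In F0 against descendants, Pdk4, which restrains pyruvate oxidation, was at -0.73 (SE 0.18, adjusted p = 0.0517, limma) with 10.67 in F0 EX, 9.65 in F0 SED and 10.54 to 11.04 in descendants.

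The ATP synthase and energy export list had 13 kept genes with a median of 0.27 between the F0 pools, 3 of them higher by at least 0.5. Their means lay between 9.73 and 12.3, and 1181 of 4901 kept genes with a mean of at least 6 were higher by as much. In F0 against descendants all 13 were below 0, with a median of -0.14, where 6567 of 11963 kept genes were below 0. Against the descendant mean the list's median was 0.0068 for F0 EX and -0.23 for F0 SED, the array that stands apart. Vdac1, the outer membrane pore, read 11.07 in F0 EX, 10.08 in F0 SED and 10.59 to 11.13 in descendants. The 6 shuttle enzymes had a median of 0.36 between the F0 pools, with 2 higher by at least 0.5. Their means lay between 9.81 and 11.4, so the same share of brighter genes stands beside this count. Gpd2, the mitochondrial enzyme of the glycerol phosphate shuttle, was at -0.55 in F0 against descendants (adjusted p = 0.0688). Cpt1a, the outer membrane acyltransferase, was at -0.38 there (adjusted p = 0.0574), with 5.56 and 5.39 in F0 and 5.68 to 6.03 in descendants.

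Other carriers and channels of the inner membrane had a median of 0.23 between the F0 pools over 12 kept genes, with 5 higher and 1 lower by at least 0.5. Of all kept genes, 15.3% were higher by as much and 5.38% lower. Mpc1, a subunit of the pyruvate carrier, read 9.05 in F0 EX, 8.34 in F0 SED and 8.90 to 9.39 in descendants. The import machinery that inserts the Slc25 proteins had a median of 0.32 over 11 kept genes, with 5 higher and 1 lower, beside the same shares of all kept genes. Timm10, an intermembrane space chaperone for carriers, read 5.66, 4.42 and 5.51 to 5.78. For Mpc1 and Timm10 F0 EX was within the descendant range and F0 SED below it. For ancestry over F1 and F2, Acot2 was at 0.31 (adjusted p = 0.888) and Timm29, a subunit of the carrier translocase, at 0.22 (adjusted p = 0.888).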

How the data were processed

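RNA of 5 mice per pool, diluted to 98 ng/µl, was put on 10 Affymetrix whole-transcript arrays, as the labels' protocols describe. The authors deposited log2 probe set signals, between 0.966 and 14.2 over 35557 probe sets. This range is the basis for calling the scale log2. Affymetrix Expression Console is the tool in the submitters' processing notes. Its version and normalization, and a genome build, are not given here in the sources used. Array number limits the precision.

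Symbols came from GEO's annotation of the platform, possibly outdated. Of the probe sets 21789 had 1 symbol, 1621 had several and 12147 had none. All 48 member symbols matched RefSeq. For 999 genes with several probe sets the one with the highest mean was used.

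Values were used as deposited and tested with limma 3.58.1 (lmFit, eBayes) in R 4.3.3, with Benjamini-Hochberg adjustment over 11963 genes and a threshold of 0.05. A model of 4 descendant groups on 8 arrays gave the ancestry effects in F1 and in F2 and the interaction. Ancestry over F1 and F2, and F2 against F1, came from an additive model on these arrays. F0 against descendants came from an additive model of F0 status and ancestry on all 10. That model gives F0 and descendants 1 shared EX effect, although only in F0 was exercise itself the treatment. F0 EX against F0 SED was described by size, with a bound of 0.5. The fits were tested on simulated data. Alternatives were other scalings, filters, probe set rules, variance models, array weights, a pool block and pools left out. Centring on the kept genes was added after seeing the data.

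Named members are the 5 with the smallest p in each tested comparison, the 5 highest and 5 lowest between the F0 pools, and a fixed list of muscle carriers and uncoupling proteins. Others, such as Slc25a16, Slc25a26 and Slc25a17, were named after their values were seen. Of pathway lists, up to 4 genes per list are named, and their examples between the F0 pools were chosen after their values were seen. Members, lists and tests were chosen with earlier results of these data known. Promoter sequences are RefSeq's, GRCm38.p6. The labels do not say whether the pool numbers pair the arrays. Correlations of pool 1 minus pool 2 between descendant groups, over kept genes, lay between -0.11 and 0.06. No shared effect of pool number was thus seen over the kept genes.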

Additional observations from a re-analysis of the deposited data

Results flagged for a closer look

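In 6 of 74 sets of 4 descendant pools, 1 pool stood far from the other 3, by Dixon's criterion at the 95% level. Nominally chance alone marks about 1 set in 20, but each set mixed F1 and F2 pools. The share over all kept genes was not computed, so the count says nothing particular to the members. F1 EX pool 1 was the highest or lowest descendant array for 54.7% of all kept genes. F1 EX pool 1, which stands apart over all genes, gave 3 of the 6. Among the EX pools it read 8.80 for Ucp3, against 8.24 to 8.25 in the other 3, 7.21 for Slc25a16, against 6.79 to 6.81, and 5.19 for Slc25a35, against 4.69 to 4.75. Among the SED pools, F2 SED pool 2 read 4.29 for Slc25a30, against 5.07 to 5.16, and 6.02 for Slc25a23, against 5.88 to 5.90. F1 SED pool 1 read 4.55 for Slc25a47, against 4.05 to 4.12.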

How the results depend on the processing

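With the pool number as a replicate block, 0 members were called in all 5 descendant comparisons, as without it. F0 carries no pool numbers, so no such fit was made there. In F0 against descendants the count of members called was 0 in the main analysis, 1 with the filter at the 60th percentile, 1 without both arrays that stand apart and 1 against F2 alone, and 0 to 3 with single pools left out. The 340 genes called there became 30 with array weights, 14 against F1 alone and 204 without both arrays that stand apart, and 89 to 1297 with single pools left out. In F1 ancestry 0 to 3 members were called with single pools left out. In ancestry over F1 and F2, in F2 ancestry, in the F2 minus F1 difference and in F2 against F1, 0 members were called in each alternative run.

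Some differences changed sign, and the cause was not tested. In F0 against descendants, a fit without 1 F0 pool set the other only against the 4 descendant pools of its ancestry. Without F0 SED, Ucp3 was thus at -0.069 against the EX descendants, while F0 EX was at 0.065 against the mean of all 8 descendant pools. In F0 against descendants Slc25a12 was at 0.055 after quantile normalization and 0.081 without both arrays that stand apart, where Slc25a36 was at 0.22. Against F1 alone Slc25a4 was at -0.000825 and Slc25a5 at 0.0020. Single pools left out gave Slc25a3 -0.47 to 0.15, Slc25a4 -0.073 to 0.10, Slc25a20 -0.22 to 0.55, Slc25a28 -0.16 to 0.68, Slc25a33 -0.43 to 0.051, Slc25a36 -0.78 to 0.18, Slc25a42 -0.49 to 0.024 and Ucp3 -0.069 to 0.37. In ancestry over F1 and F2, Slc25a4 was at -0.0089 and Slc25a37 at -0.0072 with arrays centred on the median of the kept genes, and with the F0 pair included Slc25a37 was at -0.059 and Slc25a42 at 0.081. Single pools left out gave Slc25a4 -0.0027 to 0.030, Slc25a12 -0.024 to 0.16, Slc25a20 -0.11 to 0.14, Slc25a25 -0.058 to 0.20, Slc25a33 -0.013 to 0.12, Slc25a37 -0.055 to 0.10 and Slc25a42 -0.077 to 0.043, and in F1 ancestry Slc25a40 -0.0040 to 0.63.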
